A study of Homo sapiens with 6 samples.

Results

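The genes described here are 10 genes of the bone morphogenetic protein (BMP) pathway in SKOV3, an established human ovarian cancer cell line. They are the ligand genes BMP2, BMP4 and BMP7, the secreted antagonist genes GREM1 and NOG, the decoy receptor gene BAMBI, and the signal transducer and feedback genes SMAD3, SMAD9, SMAD6 and SMAD7. They were chosen by gene symbol, with 1 probe set each, from 14884 genes annotated on the array, and all 10 were found. The control cells (2D, n = 3) grew for 11 days on attachment plates in McCoy's 5A medium with 15% serum. The compared cells (3D, n = 3) grew equally long in the same medium on low-attachment plates with FP001, a medium additive known only by its code name, at 0.015% (w/v). Plate type and additive differ between the groups at once and cannot be told apart. Separate cultures are not stated for the 3 samples within each condition, so p-values cover only the sample-to-sample spread, which may be technical. Values are log2 RMA values, differences are 3D minus 2D on that log2 scale, and a gene was called at a limma adjusted p under 0.05 over all genes.

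BMPs are secreted dimers that bind pairs of serine/threonine kinase receptors. The activated receptors phosphorylate SMAD1, SMAD5 and SMAD9, which join SMAD4 and enter the nucleus, whereas TGF-beta and activin receptors phosphorylate SMAD2 and SMAD3. Noggin and gremlin trap BMPs outside the cell, BAMBI is a receptor-like protein without a kinase domain, and the inhibitory SMADs, SMAD6 and SMAD7, are induced by the pathway and damp it. In the ovary, BMPs act in follicle growth and on the surface epithelium.

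Of the 10 genes, SMAD9 and SMAD6 were called higher in 3D, each by about a doubling, BMP4 was called lower, and 7 did not pass. Of all genes tested, 10% were called, 5.23% higher and 4.77% lower. The median difference of the 10 genes was 0.05, and that of all genes was -0.0074. To show the DNA near a start site of the called genes, the 250 bases before the start site that the promoter table uses follow for each (RefSeq, GRCh38.p14, 5′ to 3′ on the gene's strand). Capitals mark GGCGCC, the core of the GC-rich element to which BMP-activated SMADs bind, and CAGAC or its reverse complement GTCTG, a SMAD box. The SMAD9 stretch is chr13:36920239-36920488 on the minus strand, the SMAD6 stretch chr15:66701986-66702235 on the plus strand and the BMP4 stretch chr14:53955051-53955300 on the minus strand. The SMAD6 window lies just outside the annotated gene, whereas the SMAD9 and BMP4 windows lie inside the full span of theirs, which begins further upstream.
SMAD9: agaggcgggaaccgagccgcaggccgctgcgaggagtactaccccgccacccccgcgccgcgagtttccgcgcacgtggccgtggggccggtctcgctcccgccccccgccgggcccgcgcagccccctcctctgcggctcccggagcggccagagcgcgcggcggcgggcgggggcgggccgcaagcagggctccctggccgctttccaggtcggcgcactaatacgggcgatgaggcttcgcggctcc
SMAD6: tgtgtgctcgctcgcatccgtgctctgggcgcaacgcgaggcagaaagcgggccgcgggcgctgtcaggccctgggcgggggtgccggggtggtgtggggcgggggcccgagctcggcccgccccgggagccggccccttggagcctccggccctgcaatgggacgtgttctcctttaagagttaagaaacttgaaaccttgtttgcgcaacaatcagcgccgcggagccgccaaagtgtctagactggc
BMP4: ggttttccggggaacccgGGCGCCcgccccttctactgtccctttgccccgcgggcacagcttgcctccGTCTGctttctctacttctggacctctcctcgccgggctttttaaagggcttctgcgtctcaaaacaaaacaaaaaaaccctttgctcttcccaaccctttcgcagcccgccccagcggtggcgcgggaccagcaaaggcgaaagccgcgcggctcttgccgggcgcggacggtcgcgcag
Neither of these motifs occurs in the SMAD9 and SMAD6 windows, and BMP4 has 1 match to each. Other forms of SMAD box were not searched, so gtctagac near the end of the SMAD6 window is not marked. The lack of capitals therefore does not mean that a window holds no SMAD element. Searched on both strands, GGCGCC lies in 16.1% and CAGAC in 37.8% of 27305 promoter windows of this length. The table holds 7 of the 10 genes. GGCGCC occurs in 4 of these 7, which are BMP4, GREM1, BAMBI and SMAD3, and CAGAC in 4 of 7, which are BMP4, GREM1, BAMBI and SMAD7. The GC content of the window, which these shares do not take into account, was 63.6% for BMP4, 76.8% for GREM1, 81.2% for BAMBI and 80.8% for SMAD3. It was 78.4% for SMAD9, 68% for SMAD6 and 48% for SMAD7. A match describes letters only and is not evidence of a bound site.

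The arrays fell into groups with 1 array somewhat apart. Correlations across genes, which are not independent replicates, were 0.991 to 0.993 among 2D arrays, 0.995 between 3D replicates 2 and 3, and 0.988 between 3D replicate 1 and either of these. Between groups they were 0.975 to 0.982. Of 11 markers of ovarian carcinoma epithelium 9 were measured, and PAX8, the lineage factor of Müllerian epithelium, read 10.13 to 10.25 in 2D and 10.15 to 10.44 in 3D. Of the 9, EPCAM (1.76 ± 0.11 SE, limma adjusted p = 0.000159), CLDN3 (1.12 ± 0.13, 0.00171) and CLDN4 (0.64 ± 0.12, 0.0158) rose, KRT7 fell by 0.93 ± 0.14 (0.00532) and 5 did not pass. The 5 were PAX8, KRT18, MSLN, KRT8 and WT1. KRT8 (5.58 to 5.89 over all arrays) and WT1 (5.09 to 5.35) read far lower than PAX8. CLDN4 read 4.22 to 4.56 in 2D, near the array medians. The log2 summed level of the 9 was 11.48 to 11.56 in 2D and 12.01 to 12.27 in 3D, and its part in the BMP pathway results was not tested. Of 8 leukocyte markers 2 were measured, CD14 (3.49 to 4.31 over all arrays) and CD68, a lysosomal protein gene that rose by 0.68 ± 0.11 (SE, limma adjusted p = 0.00871). Every value of the 10 BMP pathway genes, the lowest being 4.76, lay above the array medians of 4.30 to 4.37. These medians were taken over all 53617 probe sets, most of which were not used for genes here. They are not a detection limit, so a value above them does not show that a gene is expressed.

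Among the ligands, BMP4, which encodes a ligand that patterns mesoderm and acts on ovarian follicles, fell. It read 6.04, 6.51 and 5.75 in the 2D replicates and 5.30, 5.12 and 5.34 in the 3D replicates. All 3D arrays lay below all 2D arrays, and the 2D arrays were the more scattered group. The means were 6.10 ± 0.38 and 5.25 ± 0.12 (SD, n = 3 per group). The difference was -0.84 ± 0.19 (SE, 95% interval -1.28 to -0.41, limma adjusted p = 0.0297), so the 2D level was 1.80-fold the 3D level. Of all genes, 3.91% had a larger absolute difference. The call was lost when 2D replicate 1 was left out (adjusted p = 0.0835), and likewise for 3D replicate 2 (0.106) and for 3D replicate 3 (0.0785).

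BMP2, encoding the bone-inducing ligand closest to BMP4 in sequence, read 6.69, 6.68 and 6.55 in 2D and 6.59, 6.83 and 6.64 in 3D. The groups overlapped, and the difference was 0.05 ± 0.10 (SE, 95% interval -0.20 to 0.29, limma adjusted p = 0.855). BMP7, a ligand of kidney and epithelial development, read 4.76, 4.98 and 4.98 in 2D and 5.33, 5.10 and 5.21 in 3D. All 3D arrays lay above all 2D arrays for BMP7, by a mean of 0.31 ± 0.11 (SE, 95% interval 0.05 to 0.56), which did not pass over all genes (limma adjusted p = 0.139). Groups that do not overlap were found for 29.2% of all genes and for 4 of the 10, which are SMAD9, SMAD6 and BMP7 (3D above 2D, as for 13.8% of all genes) and BMP4 (3D below 2D, as for 15.3%).

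The extracellular antagonists did not pass. GREM1, encoding gremlin 1, which binds BMP2 and BMP4, read 5.50, 5.83 and 5.78 in 2D and 6.03, 5.49 and 5.53 in 3D. Its highest value and its lowest were both 3D arrays, with 3D replicate 1 apart from the other two. The difference was -0.018 ± 0.17 (SE, limma adjusted p = 0.969) over all arrays and -0.19 without 3D replicate 1 (adjusted p = 0.375). NOG, encoding noggin, read 5.22, 4.97 and 5.10 in 2D and 5.15, 5.08 and 5.20 in 3D. The groups overlapped for NOG, with a difference of 0.05 ± 0.10 (SE, 95% interval -0.19 to 0.28, limma adjusted p = 0.840). BAMBI, which sits in the membrane beside the receptors, read 7.17, 7.71 and 7.51 in 2D and 7.88, 7.72 and 7.71 in 3D. The 3D arrays were close together for BAMBI and overlapped 2D replicate 2, and the difference of 0.31 ± 0.15 (SE, 95% interval -0.04 to 0.65) did not pass (limma adjusted p = 0.266). It was 0.16 without 2D replicate 1 and 0.43 without 2D replicate 2.

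**Figure D1:**
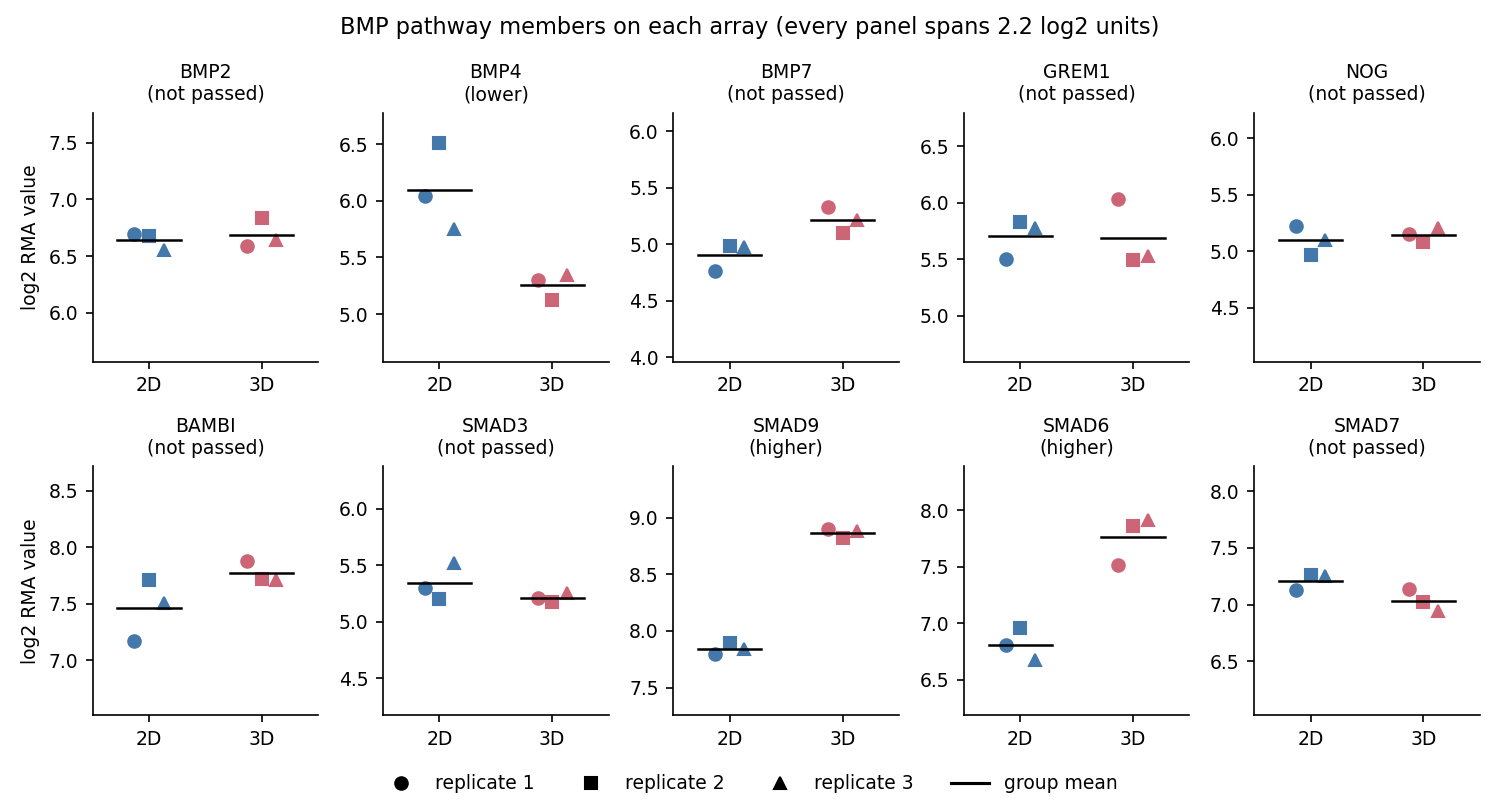
Log2 RMA values (vertical axes, each spanning the same log2 range) of the 10 BMP pathway genes on the 3 arrays each of 2D and 3D culture, with group means as black bars and replicate numbers as marker shapes. The SMAD9 arrays form tight groups around 7.84 and 8.87, SMAD6 rises and BMP4 falls without overlap, and the SMAD7 means are 7.21 in 2D and 7.03 in 3D.

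The clearest change was that of SMAD9, whose protein (also called SMAD8) is a receptor-regulated SMAD of the BMP branch. It read 7.79, 7.89 and 7.84 in 2D and 8.91, 8.82 and 8.88 in 3D. Both groups were tight and far apart. The means were 7.84 ± 0.049 and 8.87 ± 0.043 (SD, n = 3 per group). The difference was 1.03 ± 0.09 (SE, 95% interval 0.82 to 1.23, limma adjusted p = 0.000471), a 2.04-fold rise, and 2.82% of all genes had a larger absolute difference. Leaving out single arrays gave differences of 1.0 to 1.05 and adjusted p-values of 0.00122 to 0.00394.

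SMAD3, the TGF-beta and activin branch transducer, read 5.30, 5.20 and 5.52 in 2D and 5.21, 5.17 and 5.25 in 3D. The groups overlapped, and SMAD3 did not pass (difference -0.13 ± 0.11 SE, 95% interval -0.38 to 0.12, limma adjusted p = 0.555). The difference was -0.041 without 2D replicate 3 and -0.20 without 2D replicate 2. The SMAD9 value minus the SMAD3 value, taken within each array, was 2.32 to 2.69 in 2D and 3.63 to 3.70 in 3D. This within-array difference shifted by 1.16, and the groups did not overlap (two-sided exact permutation p = 0.1, the smallest that 3 arrays against 3 can give). The pair was chosen after its values were seen, so the lack of overlap adds no support to the SMAD9 result.

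SMAD6, the inhibitory SMAD that acts mainly on BMP receptors and SMAD1, rose as well. It read 6.81, 6.96 and 6.67 in 2D and 7.52, 7.86 and 7.91 in 3D. All 3D arrays lay above all 2D arrays, with 3D replicate 1 the lowest of the 3D group. The means were 6.81 ± 0.15 and 7.76 ± 0.22 (SD, n = 3 per group). The difference was 0.95 ± 0.14 (SE, 95% interval 0.63 to 1.27, limma adjusted p = 0.00495), a 1.93-fold rise, and 3.20% of all genes had a larger absolute difference. Without 3D replicate 1 it was 1.07 (adjusted p = 0.00221). The annotation ties the SMAD6 probe set to a non-coding transcript of the gene, so which SMAD6 transcripts it reads was not settled here.

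SMAD7, the inhibitory SMAD that acts on both the BMP and TGF-beta branches, did not pass. It read 7.12, 7.26 and 7.25 in 2D and 7.14, 7.02 and 6.94 in 3D. The groups overlapped by 3D replicate 1, which lay above 2D replicate 1. The difference was -0.18 ± 0.10 (SE, 95% interval -0.41 to 0.05, limma adjusted p = 0.337). The SMAD6 value minus the SMAD7 value within each array was -0.58 to -0.30 in 2D and 0.38 to 0.97 in 3D. It shifted by 1.13, without overlap of the groups (two-sided exact permutation p = 0.1, the smallest possible). This pair, too, was chosen after its values were seen and adds no support to the SMAD6 result. For the 7 genes that did not pass, the 95% intervals ran from -0.41 at the lowest (GREM1) to 0.65 at the highest (BAMBI). None of these 7 intervals reached a 2-fold change on the RMA scale. They cover only the sample-to-sample spread, which may be technical, and so do not bound the difference between separate cultures.

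**Figure D2:**
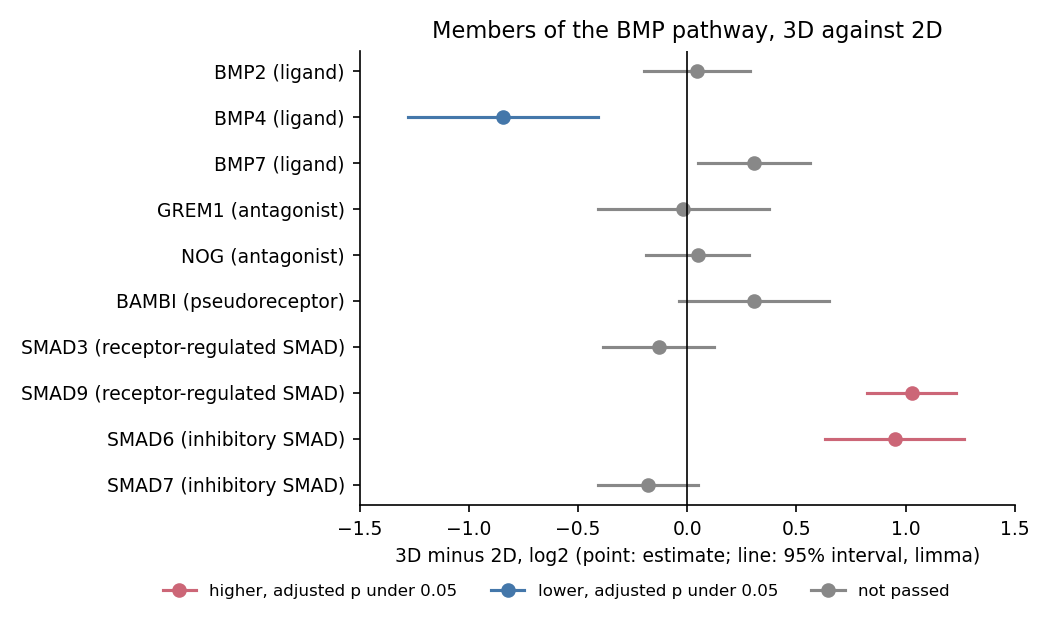
Difference between 3D and 2D culture (horizontal axis, log2) for the 10 BMP pathway genes, as the limma estimate (point) with its 95% interval (line), n = 3 arrays per group. SMAD9 (1.03) and SMAD6 (0.95) lie to the right of 0, BMP4 (-0.84) to the left, and the intervals of the 7 genes in grey include 0 except that of BMP7 (0.05 to 0.56).

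The genes nearest to SMAD9 in pattern were DOK7, ITPK1 and TST. Nearness was the root mean square distance over the 6 arrays after each gene was centred on its own mean, and it was 0.061, 0.065 and 0.068 log2 units. They rose by 0.94, 0.94 and 0.96 (limma adjusted p = 0.00088, 0.000684 and 0.000924). The distance is a description of these 6 arrays.

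Other genes of the TGF-beta superfamily were read from 6 lists with 104 genes, of which 63 were measured. Of these 63, 6 were called higher, 9 lower and 48 did not pass, which is 23.8% called against 10% of all genes. The lists were drawn up with earlier results of these data known, in which THBS1, TAGLN and CCN2 had already been seen to fall. The median difference of the 63 genes was -0.036.

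Of 28 further ligand genes 20 were measured, 2 rose and 18 did not pass (median difference 0.017). That is 10% called, the same share as of all genes. BMP6, encoding the ligand that induces hepcidin in the liver, read 5.56, 5.96 and 5.95 in 2D and 6.86, 7.14 and 7.01 in 3D. All 3D arrays of BMP6 lay well above all 2D arrays. The difference of 1.18 ± 0.14 (SE, limma adjusted p = 0.00192) is a 2.26-fold rise. BMP6 minus BMP4 within each array was -0.55 to 0.19 in 2D and 1.56 to 2.02 in 3D, a shift of 2.02 (two-sided exact permutation p = 0.1, the smallest possible). These 3 gene pairs were set against each other after their values were seen, and adjusted over the 3 the permutation p remained 0.1.

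MSTN, which encodes the muscle growth inhibitor myostatin, rose by 0.84 ± 0.14 (SE, limma adjusted p = 0.00851) at values of 3.44 to 3.90 in 2D and 4.47 to 4.63 in 3D. The 2D values lay under the array medians, where RMA compresses differences. BMP5 read 4.28, 3.73 and 3.19 in 2D and 3.01, 2.83 and 3.00 in 3D, and did not pass (difference -0.78 ± 0.25 SE, limma adjusted p = 0.0959). GDF15, a stress-induced cytokine gene, read 8.88, 9.52 and 9.51 in 2D and 9.62, 7.85 and 7.83 in 3D. 3D replicate 1 held the highest GDF15 value of all arrays and the other 3D arrays the lowest. The GDF15 difference was -0.87 ± 0.46 (SE, limma adjusted p = 0.322) over all arrays and -1.46 without 3D replicate 1 (adjusted p = 0.00683). BMP5 and GDF15 were named after their values were seen.

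Of 17 receptor and co-receptor genes 3 were measured. The type I and type II BMP receptor genes BMPR1A, BMPR1B and BMPR2 were not analysed here. ENG, encoding the BMP9 and TGF-beta co-receptor endoglin, read 5.53, 5.58 and 5.81 in 2D and 7.92, 7.16 and 7.05 in 3D. It was higher on all 3D arrays, most of all on 3D replicate 1, and rose by 1.74 ± 0.22 (SE, limma adjusted p = 0.00298), or 3.34-fold. Without 3D replicate 1 the rise was 1.47 (adjusted p = 0.000776). ENG is also an endothelial gene, and of 8 fibroblast and endothelial markers 4 were measured. PECAM1 rose from 3.68 ± 0.26 to 4.95 ± 0.11 (SD, n = 3, limma adjusted p = 0.00166). VWF (4.43 and 4.39), THY1 (5.32 and 5.31) and the fibroblast gene DCN (2.45 and 2.57, under the mean lower quartile of 2.93) did not pass. The log2 summed level of the 4 markers was 6.24 to 6.46 in 2D and 6.45 to 6.76 in 3D, no value was at 0, and their part in the ENG result was not tested. A change in the share of expressing cells and a change in RNA per cell cannot be told apart in such bulk samples of a cell line. ACVRL1, the endothelial type I receptor gene that pairs with endoglin, gave -0.099 ± 0.11 (SE, limma adjusted p = 0.664).

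Of 17 further extracellular antagonist and binding protein genes 12 were measured, 1 rose, 3 fell and 8 did not pass (median difference -0.081). That is 33.3% called, against 10% of all genes. CRIM1, encoding a membrane protein that binds BMPs and retains them in the cell, read 9.73, 9.76 and 9.64 in 2D and 8.64, 8.44 and 8.43 in 3D. Its groups were tight and apart, and it fell by 1.21 ± 0.10 (SE, limma adjusted p = 0.000427), so the 2D level was 2.31-fold the 3D level. The follistatin-related genes FSTL1 and FSTL3 fell by 0.65 ± 0.12 (SE, limma adjusted p = 0.0127) and 0.68 ± 0.13 (adjusted p = 0.0182). FST itself, encoding the activin-binding protein follistatin, gave -0.12 ± 0.11 (SE, limma adjusted p = 0.594). TWSG1, which encodes twisted gastrulation, a partner of chordin, rose by 0.38 ± 0.09 (SE, limma adjusted p = 0.0397), and CHRD, encoding chordin, gave 0.24 ± 0.10 (adjusted p = 0.215). TWSG1 lost its call without any single array (adjusted p = 0.0555 to 0.142). FSTL1 lost it in the fits that omit 2D replicate 1, 2D replicate 2 or 3D replicate 2 (highest adjusted p 0.057). FSTL3 lost it in the same fits and when 3D replicate 3 was omitted (highest adjusted p 0.0766).

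Of 18 further SMAD and intracellular modulator genes 12 were measured, 1 rose, 2 fell and 9 did not pass (median difference -0.080). That is 25% called, against 10% of all genes. The BMP-branch SMADs beside SMAD9 did not pass, with 0.19 ± 0.13 for SMAD1 (SE, limma adjusted p = 0.469) and -0.085 ± 0.11 for SMAD5 (adjusted p = 0.719). The common partner SMAD4 gave -0.23 ± 0.09 (SE, limma adjusted p = 0.158) and SMAD2 -0.05 ± 0.09 (adjusted p = 0.813). ZNF423, a zinc finger protein that joins BMP-activated SMADs on target genes, read 5.37, 5.29 and 5.34 in 2D and 6.08, 6.0 and 6.22 in 3D. ZNF423 was higher on every 3D array and rose by 0.77 ± 0.10 (SE, limma adjusted p = 0.00266). The SMAD corepressor genes SKIL and TGIF1 fell by 0.62 ± 0.11 (SE, limma adjusted p = 0.0101) and 0.59 ± 0.11 (adjusted p = 0.0151), and their relative SKI gave 0.0097 ± 0.10 (adjusted p = 0.971). TGIF1 lost its call in the fits that omit 2D replicate 1, 2D replicate 3 or 3D replicate 3 (highest adjusted p 0.0648).

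**Figure D3:**
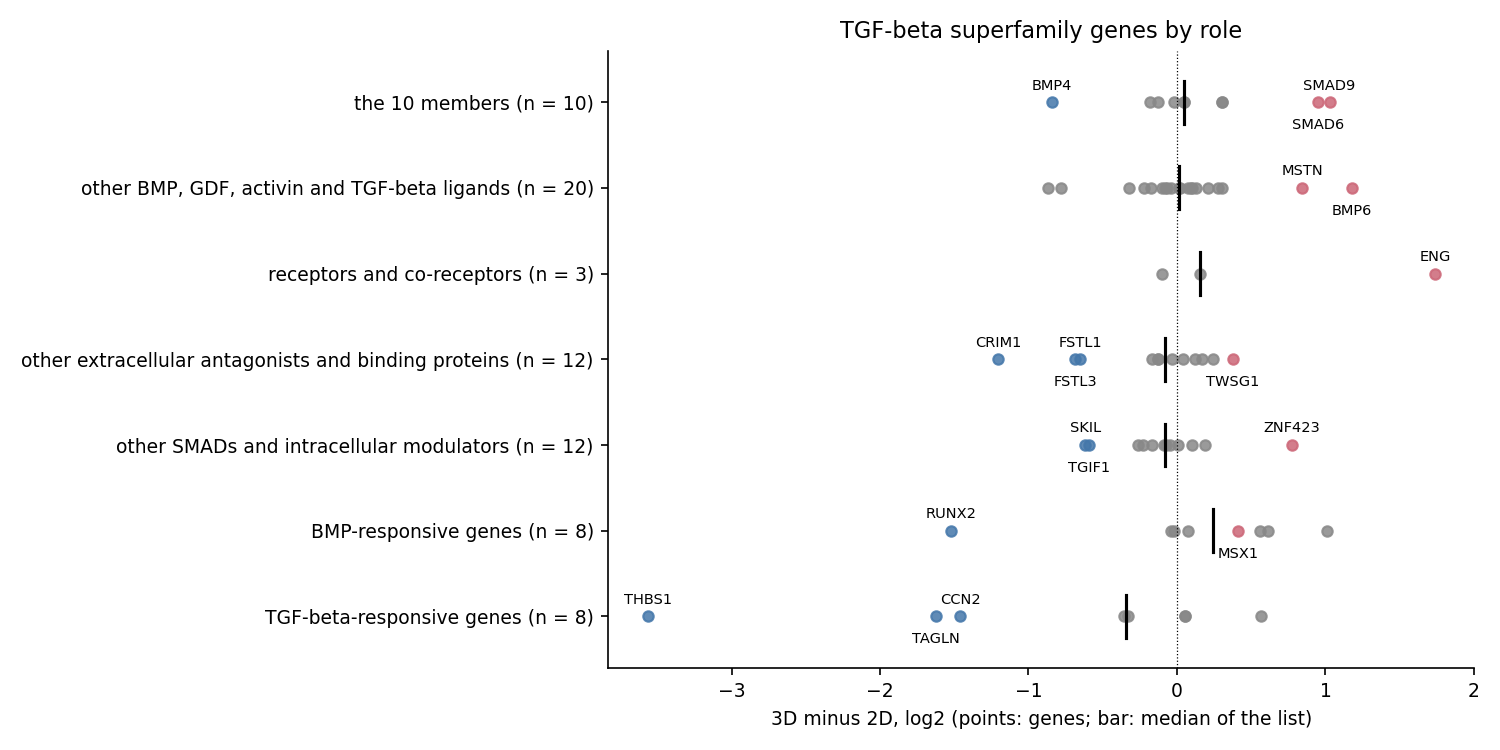
Differences between 3D and 2D culture (horizontal axis, log2) for the 10 BMP pathway genes and for the measured genes of 6 further lists by role, with called genes named and coloured (red higher, blue lower, grey not passed) and list medians as bars. BMP6 (1.18), MSTN (0.84), ENG (1.74), TWSG1 (0.38), ZNF423 (0.77) and MSX1 (0.41) lie to the right with SMAD9 and SMAD6. Among the called genes to the left are CRIM1 (-1.21), RUNX2 (-1.52) and THBS1 (-3.56).

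Of 12 BMP-responsive genes 8 were measured, 1 rose, 1 fell and 6 did not pass (median difference 0.24, 5 with an unadjusted p under 0.05). That is 25% called, against 10% of all genes. ID1, ID2, ID3 and ID4, the best known immediate targets of BMP signalling, were not analysed here. The homeobox gene MSX1 rose by 0.41 ± 0.09 (SE, limma adjusted p = 0.0264), from 6.63 to 6.73 in 2D to 7.05 to 7.16 in 3D. Its call was kept without 3D replicate 1 and lost without each of the other arrays (highest adjusted p 0.0945). RUNX2, the master factor of bone formation, read 7.43, 6.95 and 6.89 in 2D and 5.48, 5.42 and 5.81 in 3D. RUNX2 lay lower on all 3D arrays and fell by 1.52 ± 0.17 (SE, limma adjusted p = 0.00166). MSX2 read 5.57, 5.55 and 5.87 in 2D and 5.74, 7.25 and 7.02 in 3D, so 3D replicate 1 lay among the 2D arrays. The MSX2 difference was 1.01 ± 0.36 (SE, limma adjusted p = 0.136) over all arrays and 1.47 without 3D replicate 1 (adjusted p = 0.00141), and MSX2 was named after its values were seen. GATA2 (0.61 ± 0.17 SE, limma adjusted p = 0.0657) and HEY1 (0.56 ± 0.16, 0.0729) were higher on every 3D array but did not pass. DLX5 (0.07), HAMP (-0.042) and ATOH8 (-0.017) had overlapping groups and did not pass.

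Of 12 TGF-beta-responsive genes 8 were measured, 3 fell, 0 rose and 5 did not pass (median difference -0.34, 4 with an unadjusted p under 0.05). That is 37.5% called, against 10% of all genes. The 3 that fell were the matricellular genes THBS1 (-3.56 ± 0.23 SE, limma adjusted p = 0.000176) and CCN2 (-1.46 ± 0.26, 0.012) and the actin-binding gene TAGLN (-1.62 ± 0.14, 0.000477). All 3 had already been seen to fall when the list was drawn up, so its share of called genes is no evidence about the list. Without 3D replicate 1, 1 gene of this list rose and 4 fell. IL11 gave -0.36 ± 0.16 (SE, limma adjusted p = 0.231) and the transcription factor gene SNAI2 0.05 ± 0.16 (adjusted p = 0.891). SNAI1 had the largest difference among the uncalled genes of this list, 0.57 ± 0.24 (SE, limma adjusted p = 0.207). It read 5.27 to 5.52 in 2D and 5.36, 6.16 and 6.35 in 3D. LTBP2 (-0.33, adjusted p = 0.266) and JUNB (0.05, 0.820) did not pass either.

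**Figure D4:**
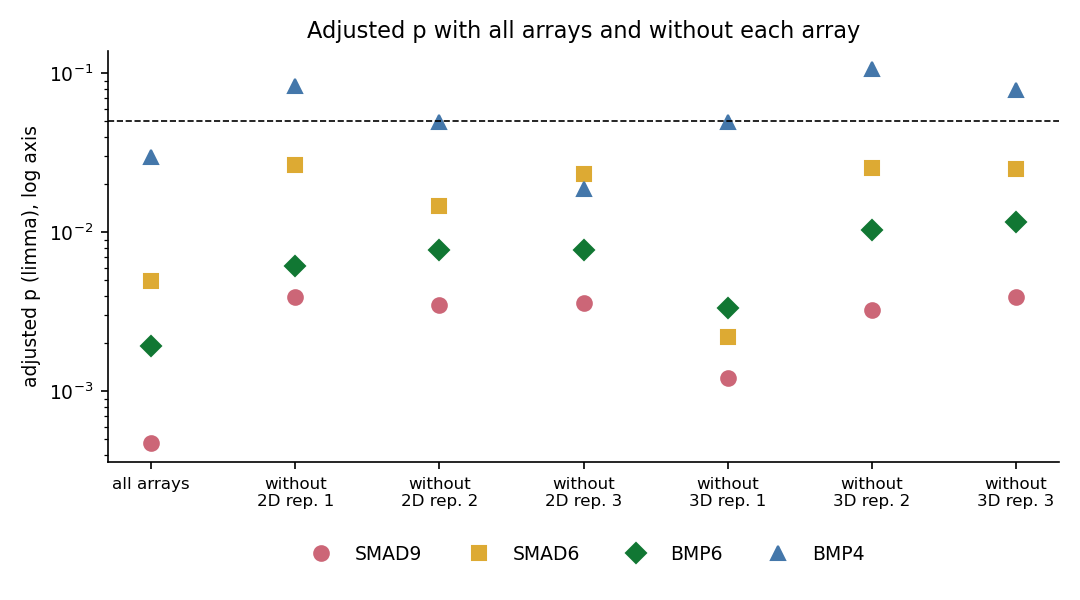
Adjusted p (vertical axis, log scale, limma) for SMAD9, SMAD6, BMP6 and BMP4 with all arrays and with each array left out, the dashed line marking 0.05. SMAD9, SMAD6 and BMP6 stay under the line in all fits shown, and BMP4 lies above it in 3 of them, at 0.0835, 0.106 and 0.0785.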

How the data were processed

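Total RNA (100 ng per sample) was hybridised to 1 array per sample, 3 per group. The deposited table holds log2 values of 53617 probe sets, made by the authors with RMA, per the submitters' processing notes. The log2 scale was read from the values (0.30 to 13.87), while the software version and any filters are not stated there. The labels name a 3′ IVT labelling kit, whereas the probe annotation is that of a Gene ST array; this was not resolved. The number of arrays limits the precision. Of the probe sets, 16098 carried 1 gene symbol and were used. The other 37519 carried none or several, which were not counted apart. All 16098 had a gene identifier that matched a RefSeq table (GRCh38.p14). Where a gene had several probe sets, the brightest by its average across the 6 arrays was kept.

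Groups were compared with limma 3.58.1 in R 4.3.3 (group alone, moderated variance, two-sided, Benjamini-Hochberg over 14884 genes, threshold 0.05). The fit was tested on simulated data. The members and lists were chosen with earlier results of these data known. All members were named, as were all called genes of the pathway lists (at most 4 per list) and the 3 genes nearest to the most changed member. Alternatives were repeated quantile normalization, median centring, a filter on dim probe sets, other probe set rules, a robust variance with a trend, a block for the replicate number, a test against a 1.2-fold limit and leaving out each array. The gene pair comparisons were chosen after seeing the data.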

Additional observations from a re-analysis of the deposited data

How the results depend on the processing

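SMAD9 and SMAD6 were called higher under all 15 alternatives, but not all of these could change their values. Each of the 10 members has only 1 probe set. The dim filter and the rules that average probe sets or take the most variable therefore left the members' differences unchanged (1.03 for SMAD9, 0.95 for SMAD6). Those settings moved only the variance estimate and the adjustment over genes. BMP4 kept its direction, but it was not called with all probe sets tested singly (0 members lower, adjusted p = 0.107), with the 1.2-fold limit (0 members lower, 0.143) or with the replicate block (0 members lower, 0.0933), and leaving out arrays gave 0 to 1 lower members. The genes called over the whole array numbered 661 with all probe sets tested singly, 592 with the 1.2-fold limit, 760 with the replicate block and 775 to 1899 without single arrays, against 1488. The lower genes of the further lists numbered 4 with all probe sets tested singly and 5 with the 1.2-fold limit, against 9. The replicate numbers did not pair the arrays: deviations from the group means of same-numbered arrays correlated at -0.28, -0.057 and -0.18. The sign of 3 uncalled members turned without single arrays, which gave -0.028 to 0.095 for BMP2, -0.015 to 0.11 for NOG and -0.19 to 0.079 for GREM1. Averaging the 2 probe sets of CCN2 gave -1.14, which was not called (adjusted p = 0.0536). With no detection calls, no gene was called absent.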
